A study of Mus musculus with 2 samples.

Results

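Glycolysis and the response to low oxygen share many genes, and 34 of them were followed here through 18 h of WNT inhibition in the newborn mouse ureter. The 34 genes were chosen by name, as the enzymes of glycolysis, the genes that handle its end product and well known targets of the hypoxia-inducible factors (HIFs), and they make up 34 of the 29924 gene names on the array. Each gene was read from its brightest probe, and 31 of the 34 were bright enough to be tested, which required the mean signal of the control or of the treated pools to exceed 100. *Ankrd37*, *Car9* and *Mxi1* were not.

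The RNA came from ureters of wild type NMRI mice at P0, the day of birth, explanted and kept for 18 h in medium with 5 µM IWP-2 or with the solvent DMSO at 1:1000. IWP-2 blocks the acyltransferase PORCN and thereby the release of WNT ligands. Each of 2 two-colour arrays set a treated pool against a control pool of 5 to 6 ureters, from female pups in replicate 1 and from male pups in replicate 2. The dyes were swapped between the arrays, so that replicate, sex and dye orientation cannot be told apart, and each of the 4 channels held 1 pool. The ureter at this stage holds urothelium, lamina propria, smooth muscle, adventitia, vessels and blood cells, and in such bulk RNA fewer cells of a type cannot be told apart from less RNA per cell.

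Glycolysis turns glucose into pyruvate in the cytosol, and lactate dehydrogenase, monocarboxylate transporters and pyruvate dehydrogenase kinases then decide how much carbon leaves the cell as lactate and how much enters the mitochondria. When oxygen is short, HIF alpha subunits escape hydroxylation by the EGLN enzymes, pair with ARNT and bind a short sequence in or near their target genes, among them most genes of glycolysis, *Vegfa*, *Adm* and the collagen prolyl hydroxylases. Canonical WNT signaling has been linked to glycolysis in several cell types, through *Pdk1* and *Ldha* among other genes.

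None of the 34 genes passed the adjusted threshold or the filter of the study. Limma, with Benjamini-Hochberg adjustment over all 14336 genes tested, called 0 of the 31 tested genes lower, against 0.886% of all genes tested, and 0 higher, against 0.363% of all. The study's own filter, a control signal above 100 and a change of at least 1.5-fold in each array, took 0 genes lower and 0 higher, against 0.363% and 0.0783% of all genes with such control signals. At an unadjusted p under 0.05, 4 of the 31 were past the threshold, which is close to the 12.9% of all genes at that level. These 4 were *Ldhb* and *Adm*, which were higher in IWP-2-treated ureters, and *P4ha1* and *P4ha2*, which were lower. The treatment itself was visible on the same arrays. *Axin2*, a feedback inhibitor of canonical WNT signaling, went from 181 to 42.2 in replicate 1 and from 154 to 46.7 in replicate 2, a mean log2 ratio of −1.91 (SE 0.0994, limma adjusted p = 0.000826). *Porcn* itself had a mean log2 ratio of −0.04 (adjusted p = 0.958).

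The median log2 ratio of IWP-2 over control was −0.01 over the 31 genes (0.01 in replicate 1 and 0.02 in replicate 2) and −0.01 over all genes tested. Of the 31 genes, 23 (74.2%) had a mean log2 ratio within 0.1 of 0, against 70.7% of all genes tested. The ratio had the same sign in both arrays for 18 of the 31 (58.1%), against 54.8% of all. The median half-width of the 95% interval was 0.16 on the log2 scale. For *Pkm*, whose ratio was near 0, the interval ran from 0.907-fold to 1.13-fold, so that changes within these bounds lay within its error.

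**Figure D1:**
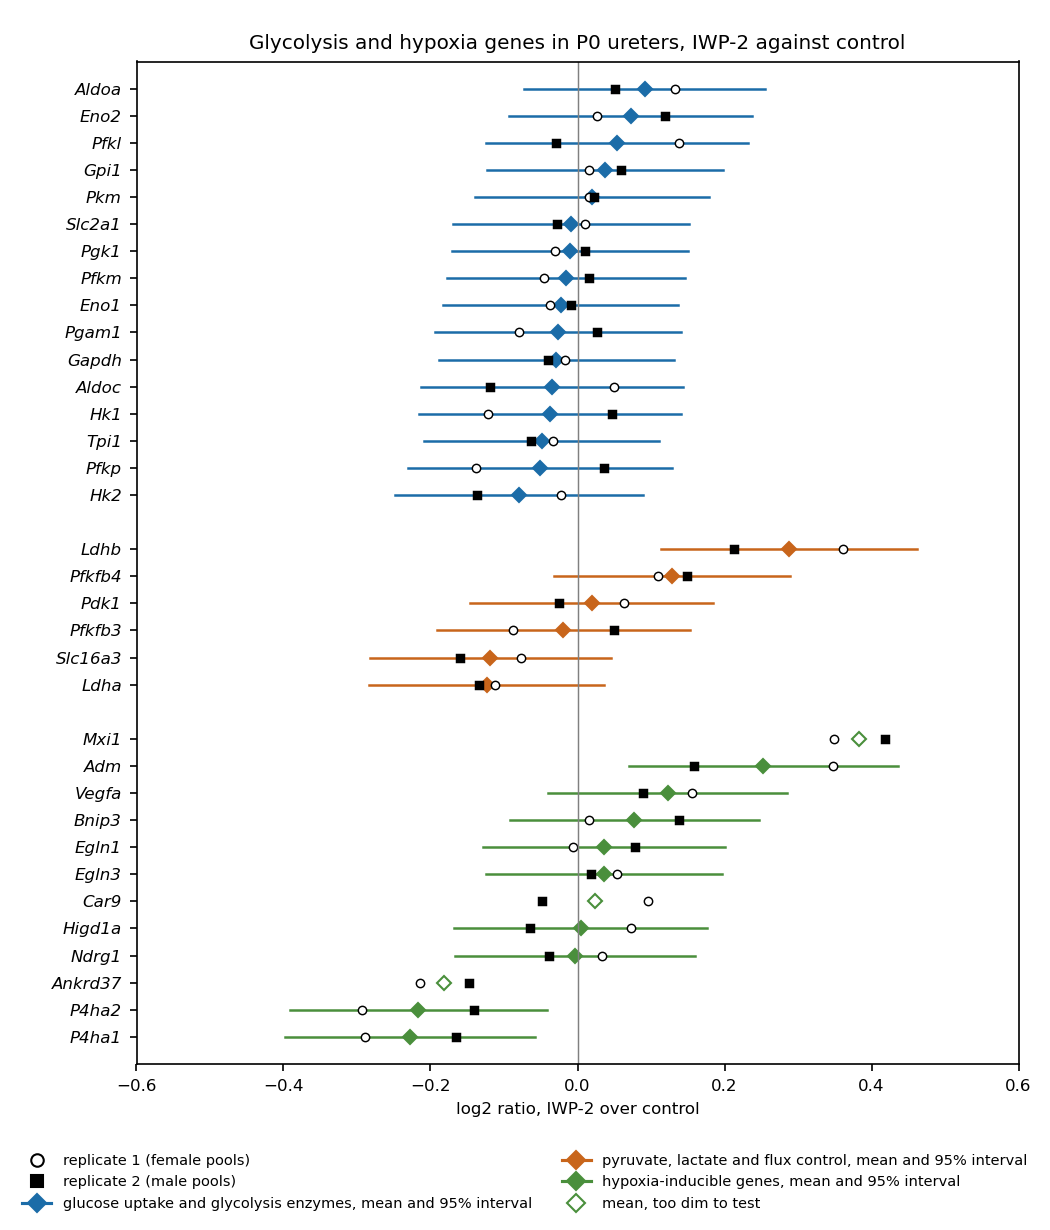
Log2 ratio of IWP-2 over control for the 34 genes, ordered within 3 functional groups. Open circles are replicate 1 and black squares replicate 2 (1 array each), coloured diamonds are their mean, bars are 95% intervals from limma, and open diamonds mark the 3 genes too dim to test. The 16 glycolysis genes sit between −0.08 and 0.09, and the intervals of 27 of the 31 tested genes include 0.

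Glucose uptake and the enzymes of glycolysis gave small ratios throughout. The mean log2 ratios of all 16 genes lay between −0.08 (*Hk2*) and 0.09 (*Aldoa*), 11 of the 16 were below 0, and 0 had an unadjusted p under 0.05. The SD of the 16 means was 0.05, against 0.16 and 0.15 in the other groups of glycolysis and hypoxia genes, with 6 and 9 tested genes. It was 0.11 over the 7779 genes of the array with a mean signal above 1000. The median absolute log2 ratio lay closer to that of these bright genes, at 0.036 for the 16 and 0.045 for the 7779. It was 0.12 and 0.08 in the other groups. *Slc2a1*, which encodes the glucose transporter GLUT1 and is a customary readout of HIF activity, read 5262 (control) and 5297 (treated) in replicate 1 and 5180 and 5082 in replicate 2. Its pools overlapped, and the mean log2 ratio was −0.01 (95% interval −0.17 to 0.15, limma adjusted p = 0.995). *Hk2*, the inducible hexokinase that traps glucose in the cell, gave 1330 and 1310 in replicate 1 and 1425 and 1297 in replicate 2. Both treated pools of *Hk2* were below both control pools, by a mean of −0.08 (−0.25 to 0.09, adjusted p = 0.817), while *Hk1*, the constitutive hexokinase, had ratios of opposite sign in the arrays (−0.12 and 0.05).

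The enzymes that follow stayed below the threshold as well. *Gpi1*, the isomerase after hexokinase, had a mean log2 ratio of 0.04. The subunits of phosphofructokinase, the main control point of the pathway, gave 0.05 for *Pfkl*, −0.02 for *Pfkm* and −0.05 for *Pfkp*, each with opposite signs in the arrays. *Aldoa* and *Aldoc*, which split the doubly phosphorylated sugar, gave 0.09 and −0.03. The change of *Aldoa* was small (0.13 and 0.05 in the arrays, adjusted p = 0.763), and all 8 of its spots pointed upwards. The spots of a probe on an array read the same pools, so here and below their agreement is not replication of the treatment. All 8 spots of *Tpi1*, triose phosphate isomerase, pointed downwards, by a mean of −0.05 (adjusted p = 0.932).

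In the ATP-producing lower part of the pathway, the mean log2 ratios were −0.03 for *Gapdh*, −0.01 for *Pgk1*, −0.03 for *Pgam1*, −0.02 for *Eno1*, 0.07 for *Eno2*, the neuronal enolase, and 0.02 for *Pkm*, pyruvate kinase. All 9 probes of *Gapdh* had means between −0.04 and −0.0003. The brighter probe of *Pkm* gave 0.02 and the dimmer −0.04. Several of these genes, *Gapdh* above all, have near-identical pseudogene copies in the mouse genome, and how much of a probe's signal comes from them was not tested. Over the 16 genes, the 95% intervals reached at most from 0.842-fold (*Hk2*) to 1.19-fold (*Aldoa*).

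**Figure D2:**
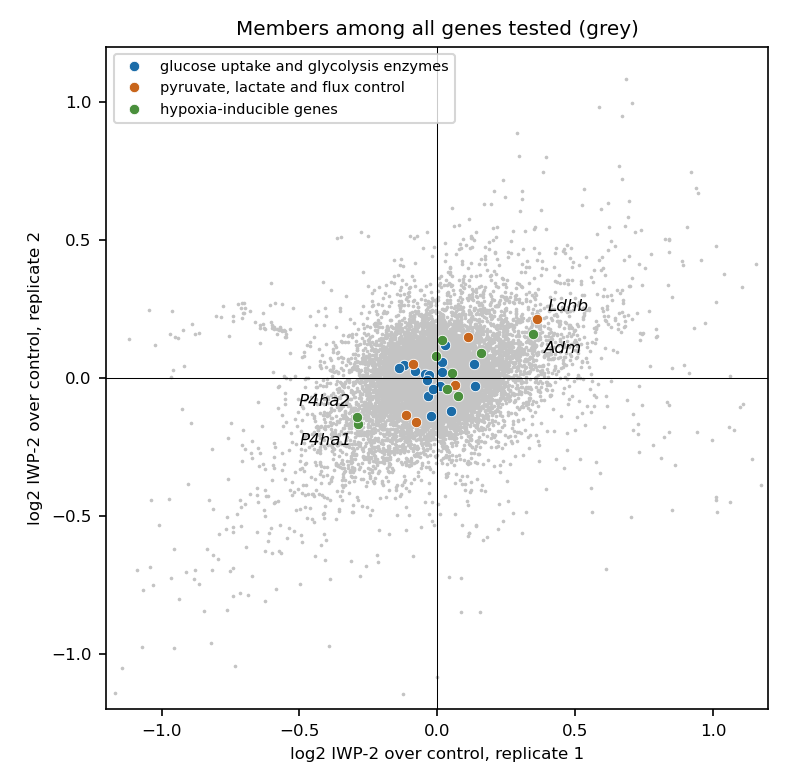
Log2 ratio of IWP-2 over control in replicate 1 (x axis) against replicate 2 (y axis) for the genes tested, with all 14336 in grey and the 31 tested glycolysis and hypoxia genes coloured by group; 44 grey genes lie beyond the axes at 1.2. *Ldhb* and *Adm* lie in the upper right and *P4ha1* and *P4ha2* in the lower left, all inside the grey cloud.

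The genes that set the fate of pyruvate spread further than the enzymes before them, with mean log2 ratios from −0.12 to 0.29. The 2 subunits of lactate dehydrogenase differed in sign. *Ldhb*, which encodes the subunit of the isozymes typical of heart and other lactate-using tissue, had signals of 9072 (control) and 11655 (treated) in replicate 1 and of 9834 and 11399 in replicate 2. Both treated pools lay above both control pools, and all 7 spots pointed the same way. The mean log2 ratio of 0.29 (0.36 and 0.21, SE 0.0725, 95% interval 0.11 to 0.46) corresponds to 1.22-fold, with an unadjusted p of 0.00635 and an adjusted p of 0.149, the lowest among the 31 genes. With a variance that follows the signal in the fit, a setting chosen after seeing the data, the adjusted p of *Ldhb* was 0.0244 and it was the 1 gene called, while all calls rose from 179 to 403.

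*Ldha*, which encodes the subunit of the isozymes typical of muscle and lactate-producing tissue, gave 21424 and 19812 in replicate 1 and 21366 and 19475 in replicate 2. Both treated pools lay below both control pools, with a mean log2 ratio of −0.12 (−0.11 and −0.13, 95% interval −0.28 to 0.04, adjusted p = 0.573), and all 8 spots pointed downwards. Its other 2 probes were also lower in both arrays but by less, with means of −0.05 and −0.05. The log2 ratio of *Ldhb* exceeded that of *Ldha* by 0.47 in replicate 1 and by 0.35 in replicate 2. This difference was not tested, and the pair was singled out after its values were seen.

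*Slc16a3*, which encodes the lactate exporter MCT4, gave 699 and 663 in replicate 1 and 671 and 601 in replicate 2. Both treated pools were below both control pools by a mean of −0.12 (95% interval −0.28 to 0.05, adjusted p = 0.621), and its second probe gave −0.15. *Pfkfb4*, a bifunctional enzyme that makes and removes the activator of phosphofructokinase, gave 609 and 657 in replicate 1 and 613 and 680 in replicate 2. Here the treated pools were the higher ones, by a mean of 0.13 (−0.03 to 0.29, adjusted p = 0.546). Its relative *Pfkfb3* had a mean of −0.02 with opposite signs in the arrays.

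*Pdk1*, which encodes the kinase that closes the entry of pyruvate into the mitochondria and has been described as a WNT target in other cells, gave 287 and 300 in replicate 1 and 290 and 285 in replicate 2. Its pools overlapped, with a mean log2 ratio of 0.02 (95% interval −0.15 to 0.18, adjusted p = 0.991).

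**Figure D3:**
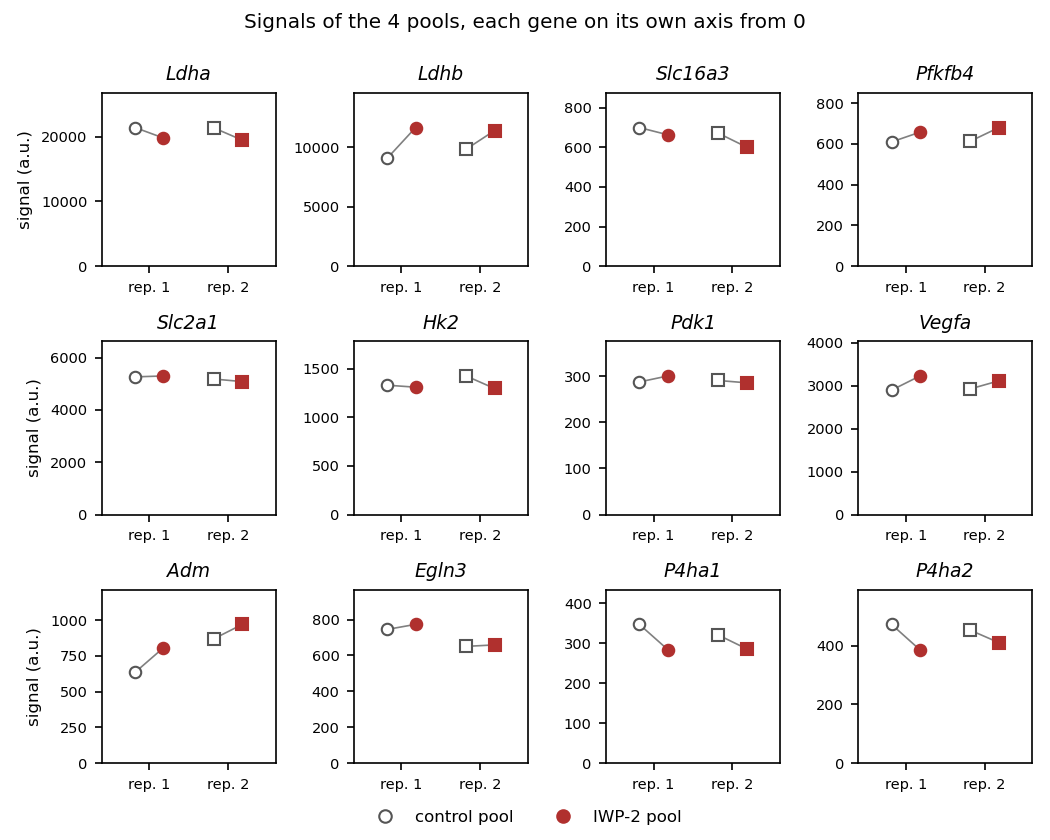
Signals (arbitrary units, each gene on its own linear axis from 0) of the control pools (open) and the IWP-2 pools (red) for 12 genes, with circles for replicate 1, squares for replicate 2 and lines joining the pools of an array. Both IWP-2 pools of *Ldhb* lie above both control pools and those of *Ldha*, *P4ha1* and *P4ha2* lie below, while *Slc2a1* and *Pdk1* overlap; signals of different genes come from different probes and cannot be compared.

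The hypoxia-inducible genes outside metabolism held both the highest and the lowest values apart from *Ldhb*. *Adm*, which encodes the vasodilator peptide adrenomedullin, gave 634 and 806 in replicate 1 and 869 and 970 in replicate 2. It was higher with IWP-2 within each array, in all 8 spots, by a mean log2 ratio of 0.25 (0.35 and 0.16, 95% interval 0.07 to 0.44, unadjusted p = 0.0142, adjusted p = 0.208). The pools of the 2 arrays overlapped, since the control pool of replicate 2 lay above the treated pool of replicate 1, and the control pools differed by 0.46 on the log2 scale, more than either treated pool differed from its control.

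*P4ha1* and *P4ha2* encode the alpha subunits of collagen prolyl 4-hydroxylase, the enzyme that hydroxylates procollagen in the endoplasmic reticulum. *P4ha1* gave 348 and 284 in replicate 1 and 321 and 286 in replicate 2. *P4ha2* gave 473 and 386 in replicate 1 and 453 and 411 in replicate 2. For each gene both treated pools lay below both control pools and all 8 spots pointed downwards. The mean log2 ratio was −0.23 for *P4ha1* (95% interval −0.40 to −0.06, unadjusted p = 0.0164, adjusted p = 0.223) and −0.22 for *P4ha2* (−0.39 to −0.04, unadjusted p = 0.0225, adjusted p = 0.260). A second, dim probe of *P4ha1* gave −0.25. The 8 fibroblast and adventitia genes, of which 0 were called, had a median log2 ratio of −0.17 in replicate 1 and −0.01 in replicate 2. Among their procollagen genes, *Col3a1* had −0.25 and −0.04 (adjusted p = 0.568), *Col1a1* −0.32 and 0.03 and *Col1a2* −0.17 and 0.11. Their part in the values of *P4ha1* and *P4ha2* was not tested.

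The oxygen sensors and the secreted growth factor lay closer to 0. *Egln3*, the prolyl hydroxylase most strongly induced by low oxygen in many cells, gave 745 and 773 in replicate 1 and 650 and 658 in replicate 2. Its pools overlapped between the arrays, with a mean log2 ratio of 0.04 (95% interval −0.12 to 0.20, adjusted p = 0.968). *Egln1*, the main hydroxylase of HIF alpha, had a mean of 0.04 (adjusted p = 0.969). *Vegfa*, the endothelial growth factor, gave 2898 and 3229 in replicate 1 and 2929 and 3116 in replicate 2. Both treated pools of *Vegfa* lay above both control pools by a mean of 0.12 (−0.04 to 0.29, adjusted p = 0.588), all 7 spots pointed upwards, and its second probe gave 0.22.

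Among the mitochondrial and stress genes, the mean log2 ratio was 0.08 for *Bnip3*, a mitophagy receptor, 0.004 for *Higd1a*, a regulator of the respiratory chain, and −0.003 for *Ndrg1*, a gene of the stress response. Their adjusted p values were 0.831, 0.998 and 0.999. *Car9*, a cell surface carbonic anhydrase that is nearly silent without hypoxia or HIF in many tissues, was dim in all 4 pools, at 65.2 and 69.7 in replicate 1 and 86.9 and 84.0 in replicate 2. It was well above background on both arrays but too dim to test, with ratios of 0.10 and −0.05. *Ankrd37*, a HIF target of little known function, had a mean of −0.18 at signals between 30.4 and 38.2. *Mxi1*, an antagonist of MYC, had 0.38 with 15.5 and 19.7 in replicate 1 and 15 and 20.04 in replicate 2, at or close to the floor of 15, where a ratio has little meaning.

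The promoters of 33 of the 34 genes were found in RefSeq (GRCm38.p6), as 49 windows of the 250 bases before an annotated start site. The core to which HIFs bind, ACGTG or GCGTG, was searched on both strands. It was present in 39 of the 49 windows (79.6%) and for 30 of the 33 genes (90.9%). Of the windows of all genes tested 55% held it, of those with at least 14 CpG dinucleotides, the median of the 49 windows, 68.3%, and of all 32851 windows 38.6%. Counted by gene, these shares were 61.1%, 70.2% and 41.5%. Some windows of the same gene overlap, and part of the 34 genes were chosen as known HIF targets. The E-box CACGTG, which contains ACGTG, was in 4 of the 49 windows (8.16%) and in 8.14% of the windows of genes tested. The TCF/LEF letters ATCAAAG or TTCAAAG were in 1 of the 49 (2.04%), that of *Car9*. They were in 5.24% of the windows of genes tested, and in 3.28% of those with at least 14 CpG dinucleotides. A match is a description of the sequence and no proof of binding. The windows of the 3 genes with an unadjusted p under 0.05 whose window lies outside the annotated gene, and of *Slc2a1* as a gene with a ratio near 0, are printed 5′ to 3′ and end at the base before the start site, with ACGTG or GCGTG on either strand in capitals. The windows are chr6:142507958-142508207 on the minus strand for *Ldhb*, chr7:110627407-110627656 for *Adm*, chr11:54100674-54100923 for *P4ha2* and chr4:119108495-119108744 for *Slc2a1*, the last 3 on the plus strand.
Ldhb: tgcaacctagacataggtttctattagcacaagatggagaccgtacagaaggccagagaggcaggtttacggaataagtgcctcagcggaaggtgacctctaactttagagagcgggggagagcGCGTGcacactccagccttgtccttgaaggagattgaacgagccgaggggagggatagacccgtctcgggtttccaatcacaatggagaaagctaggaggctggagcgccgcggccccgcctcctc
Adm: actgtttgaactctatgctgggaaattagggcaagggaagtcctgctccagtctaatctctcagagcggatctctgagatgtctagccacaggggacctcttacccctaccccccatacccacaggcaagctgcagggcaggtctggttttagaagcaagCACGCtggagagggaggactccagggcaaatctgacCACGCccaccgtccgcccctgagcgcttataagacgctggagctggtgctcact
P4ha2: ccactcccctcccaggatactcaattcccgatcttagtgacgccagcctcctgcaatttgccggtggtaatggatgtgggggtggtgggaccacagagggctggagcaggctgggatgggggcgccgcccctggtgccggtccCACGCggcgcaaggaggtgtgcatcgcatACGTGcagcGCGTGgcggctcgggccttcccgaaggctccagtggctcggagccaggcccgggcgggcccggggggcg
Slc2a1: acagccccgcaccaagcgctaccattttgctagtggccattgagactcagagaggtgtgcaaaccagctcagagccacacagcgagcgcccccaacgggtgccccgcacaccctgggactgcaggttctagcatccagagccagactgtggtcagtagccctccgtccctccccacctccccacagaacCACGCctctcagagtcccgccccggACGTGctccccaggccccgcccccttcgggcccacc
*P4ha2*, which was lower, holds 3 such cores, which begin 107, 78 and 69 bases before the start site. *Adm*, which was higher, holds 2 (at 90 and 54 bases), *Ldhb* 1 (at 126 bases) and *Slc2a1* 2 (at 61 and 36 bases). Since 30 of the 33 genes hold a core, its presence in the printed windows says nothing about the direction of a ratio.

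The pathways around these genes were read from lists written with earlier results of these data known. Of 16 other isozymes and branch-point genes of glycolysis, 8 were bright enough to be tested and 0 were called, with a median log2 ratio of 0.07 and the value furthest from 0 at *Pfkfb1* (−0.15, adjusted p = 0.437). *Hkdc1*, *Pklr*, *Pgam2*, *Gapdhs*, *Pgk2* and *Ldhc*, most of them isozymes of liver, muscle or testis, lay at the floor in all 4 pools. The 8 genes of the pentose phosphate pathway had a median of 0.02 and 0 calls, with *G6pdx*, which encodes its entry enzyme, at 0.11 (adjusted p = 0.682). Of the 16 other genes of pyruvate and lactate fate, 15 were tested and 0 called (median 0.03). *Pdk4*, the kinase of pyruvate dehydrogenase known for its rise in fasting, gave 396 and 504 in replicate 1. In replicate 2 it gave 396 and 577, and its mean log2 ratio was 0.45 (0.35 and 0.54, limma adjusted p = 0.0594). It passed the threshold with normexp background correction (0.0267), with median centring (0.0437) and with the variance trend, chosen after seeing the data (0.0260). These settings also called more genes in all (402, 193 and 403, against 179). The adjusted p was 0.0879 with no further within-array normalization and 0.0589 with quantile normalization between the arrays.

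Gluconeogenesis and glycogen genes held 1 call, higher, among 15 tested, against 0.363% of all genes tested called higher. Their median log2 ratio was 0.07. *Fbp1*, which encodes fructose bisphosphatase, the enzyme that runs against phosphofructokinase, rose from 123 to 233 in replicate 1 and from 138 to 232 in replicate 2. Its mean log2 ratio was 0.83 (0.92 and 0.75, SE 0.0745, limma adjusted p = 0.00884), and it also passed the study's filter. *Fbp2*, the muscle isozyme, had 0.36 (adjusted p = 0.115). *Pck1* and *G6pc*, the enzymes of glucose output in liver and kidney, lay at the floor in all pools.

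The genes of oxygen sensing gave no calls. Of 17 HIF pathway components, 16 were tested and 0 called, with a median log2 ratio of −0.0002 and 14 of the 16 within 0.1 of 0. *Hif1a* had 0.11 (adjusted p = 0.645), *Epas1*, which encodes HIF2 alpha, 0.01, *Arnt* −0.08 and *Vhl*, the ubiquitin ligase subunit that recognises hydroxylated HIF alpha, −0.002. The value furthest from 0 was that of *Cited2*, a HIF-induced competitor for its coactivators, at 0.22 (0.38 and 0.05, adjusted p = 0.417). HIF activity is set by protein stability, which these arrays do not measure.

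Of 25 further hypoxia-inducible genes, 22 were tested (median 0.03). Limma called 2 of them lower, against 0.886% of all genes tested, and 1 higher, against 0.363% of all. At an unadjusted p under 0.05, 4 of the 22 were lower and 5 higher, against 12.9% of all genes in either direction. *Angptl4*, an inhibitor of lipoprotein lipase induced by fatty acids as well as by hypoxia, rose from 1453 to 2239 in replicate 1 and from 1514 to 2215 in replicate 2, by a mean log2 ratio of 0.59 (0.62 and 0.55, adjusted p = 0.0175). *Tmem45a*, a transmembrane protein gene, fell from 1248 to 914 and from 1245 to 868, with a mean of −0.48 (adjusted p = 0.0331). With the mean over all probes of a gene, for which 67 genes were called in place of 179, the adjusted p of *Tmem45a* was 0.0636.

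**Figure D4:**
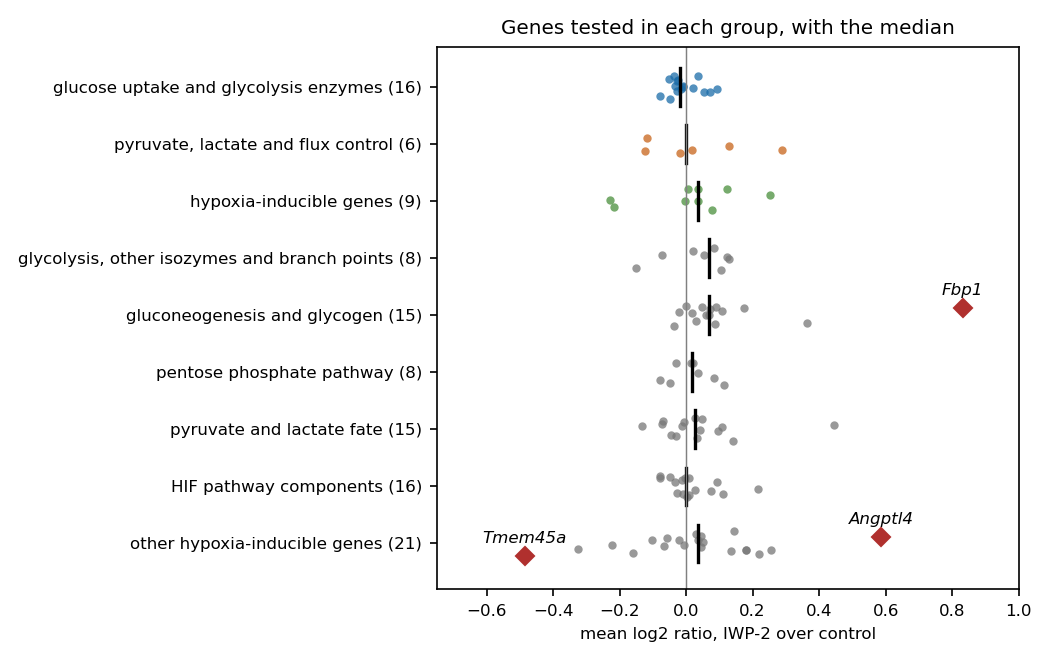
Mean log2 ratio of IWP-2 over control (x axis, 2 arrays) for the tested genes of the 3 groups of glycolysis and hypoxia genes (coloured) and of 6 related lists (grey), 1 point per gene with the number shown in brackets, spread vertically for legibility. Black bars are medians, and red diamonds are the 3 genes shown that limma called at an adjusted p under 0.05; 1 gene called lower in the last list is not shown. All medians of the points shown lie between −0.02 and 0.07.

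Markers of cell types were read on the same arrays, and 1 of them, *Aldh1a2*, was called. Of 13 urothelium genes, 0 were called and 8 had an unadjusted p under 0.05, all higher, with a median log2 ratio of 0.41 in replicate 1 and 0.13 in replicate 2. Their summed signals were 140770 and 171860 in the control pools and 179580 and 178310 in the treated pools, and none lay at the floor. *Grhl3*, a urothelial transcription factor gene, was furthest from 0, at 0.39 (adjusted p = 0.115). The arrays had opposite signs for *Epcam* (0.07 and −0.22), *Krt8* (0.14 and −0.16), *Cdh1* (0.20 and −0.11) and *Krt18* (0.35 and −0.08). *Upk3a* had 0.24 and 0.004. Of the 31 tested glycolysis and hypoxia genes, 10 were higher in both arrays. *Ldhb* (0.36 and 0.21), *Adm* (0.35 and 0.16), *Vegfa* (0.16 and 0.09), *Aldoa* and *Egln3* had, like the urothelium list, the larger ratio in replicate 1. The larger ratio lay in replicate 2 for *Gpi1*, *Eno2*, *Pkm*, *Pfkfb4* (0.11 and 0.15) and *Bnip3* (0.02 and 0.14). The part of the urothelium in the values of these genes was not tested. Smooth muscle genes had a median of 0.16 (9 tested, 0 called, *Des* furthest from 0 at 0.21), endothelial genes −0.04 (8 tested, 0 called, *Tek* at 0.19) and macrophage genes 0.15 (7 tested, 0 called, *Lyz2* at 0.31). Of 2 adipocyte genes tested 0 were called, and *Adipoq* had −0.55 and 1.40 in the arrays. The 4 lamina propria genes had a median of −0.22 and differed in sign. *Aldh1a2* was called lower (−0.63, adjusted p = 0.0281) and *Thy1* had −0.48 (adjusted p = 0.0547), while *Bmp4* had 0.04 and *Foxf1* 0.37 (0.20 and 0.54, adjusted p = 0.149). Of 2 erythroid genes tested, both globins, *Hbb-b1* had 0.19 (adjusted p = 0.322), while *Slc4a1* and *Epb4.2* lay at the floor. Of 7 kidney genes, 0 were bright enough to be tested. Of 5 immediate early and stress genes tested, 0 were called, and *Fos* had 0.36 (adjusted p = 0.103). What these values contribute to the values of the 34 genes was not tested.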

How the data were processed

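RNA of 2 control and 2 IWP-2-treated pools was measured on 2 two-colour Agilent arrays (157716 spots, 39429 probes, 4 spots per probe). The authors deposited processed signals, which are intensities that Feature Extraction had corrected for background and dye (version 12.2.0.7 per the file headers, 10.7.3.1 per the submitters' processing notes). The deposited log10 ratios of red over green served to check the direction and equalled the log10 signal ratio within 0.001 for 82.8% and 83.1% of the spots. The deposited series table holds a score per probe, read as a signed fold of treated over control (median 1 in each array), and served as an alternative. Its correlation with the log2 ratios used here was 0.981 and 0.969, while its exact scale and centring are unknown. The array files name mm9. No column of sample values was left unused (0 columns).

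Control spots (17263) and spots flagged as outliers (5235 and 5075) were left out, and 0 spots were saturated. Signals were normalized within arrays by loess (limma 3.58.1, R 4.3.3), averaged per probe, floored at 15 and turned to log2. The brightest probe stood for its gene, and 15 of the 34 genes had several. Between 68.9% and 70.4% of the probes were above background per channel, and the number of arrays limits the precision. Ratios were tested against 0 with lmFit and eBayes and Benjamini-Hochberg adjustment over the 14336 genes whose control or treated pools averaged above 100, at 0.05, with 6.49 degrees of freedom after moderation. The p-values rest only on spreads between 2 arrays, that of the gene itself and, through the moderation, that of all genes tested. The steps were tested on simulated data.

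The 34 genes and the lists were chosen with earlier results of these data known. All 34 are named. Signals of all pools are given for genes past a threshold, for the 4 highest and the 4 lowest means and for *Slc2a1*, *Ldha*, *Pdk1*, *Vegfa*, *Car9* and *Egln3*. Of each other list, genes past the limma threshold are named (at most 4), else the 1 furthest from 0, and *Axin2* and *Porcn* check the treatment. Other genes were named after their values were seen. Some genes of the lists, 1 of them called lower, enter the counts and are not reported here by name. The alternatives were other normalizations, normexp background correction (offset 50), a floor of 1, other filters, the mean over probes, kept outlier spots, each array alone and, chosen after seeing the data, a variance trend.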

Additional observations from a re-analysis of the deposited data

How the results depend on the processing

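The count of glycolysis and hypoxia genes called lower stayed at 0 under all alternatives run, as did the counts by the study's filter. The count called higher was 1 with the variance trend, chosen after seeing the data (*Ldhb*, adjusted p = 0.0244; 403 genes called in all), and 0 otherwise. The median log2 ratio of the tested genes, −0.01, was 0.035 with median centring, 0.0002 with normexp, 0.0018 with the mean over probes, 0 in the deposited series table, and 0.0096 to 0.0154 with each array alone. Median centring moved the median of all genes from −0.006 to 0.04 and turned the sign of 10 of the 34 genes, none of which had an interval that excluded 0. It changed the share of lower genes among all calls from 70.9% to 56%, normexp to 61.7% and the variance trend to 54.6%. The mean over probes gave 67 calls in all, and no further within-array normalization 117. With no filter on low signals, or with the filter on background, 0 genes of the array were called by limma, *Axin2* included, since probes at the floor have no variance, and 3 and 4 of the 34 genes had an unadjusted p under 0.05. These settings say nothing about single genes. *Ldhb*, *Adm*, *P4ha1* and *P4ha2* kept their sign in each array alone and under every alternative. The control and treated pool of a replicate share an array, so that the test of the ratios is itself paired. With 2 arrays, changes smaller than about 0.16 on the log2 scale, the median half-width of the intervals, lay within the error of a single gene, and 0 calls do not exclude larger ones, since *Ldhb*, at 0.29, was not called.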

Other observations

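The control pools of the 2 arrays differed from each other by more than the mean treatment ratio for 21 of the 31 tested glycolysis and hypoxia genes (67.7%), about as often as among all genes tested (67%). After quantile normalization between the arrays the shares were 71% and 66.9%. Replicate, sex and dye orientation cannot be told apart in this difference. It was widest for *Adm*, whose control pool of replicate 2 was higher by 0.46 on the log2 scale, followed by *Aldoc* (0.31) and *Eno1* (0.27). The treated pools showed 0.27 for *Adm*, 0.15 for *Aldoc* and 0.30 for *Eno1* in the same direction. *Egln3* and *Pfkm* were lower in the control pool of replicate 2, by −0.20 and −0.19, and the treated pools gave −0.23 and −0.13. *Car9*, too dim to test, had 0.41 in the control and 0.27 in the treated pools. *Slc2a1*, *Ldha*, *Vegfa* and *Gapdh* differed by less than 0.03 between the control pools. These values rest on 1 pool per sex and were not tested.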
